A study of Mus musculus with 6 samples.

Results

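Deptor and the genes of the mTOR complexes and their direct controls were examined in lung metastases of MMTV-Myc mouse tumours. The list named 10 genes, Deptor, Mtor, Rptor, Rictor, Mlst8, Akt1s1, Tsc1, Tsc2, Rheb and Sesn2, of the 12393 genes that had a probe set with a single symbol. Probe sets annotated with 1 of these symbols alone were used, which gave 14 probe sets for 8 genes among 22626 probe sets. Rptor and Akt1s1 had no such probe set in the annotation used here and were not analysed here. The brightest probe set of a gene over the 6 arrays was taken as its main one, and every other probe set is given beside it. The set was chosen from a difference in Deptor signal between the genotypes in these same arrays, so the Deptor difference is a description with no test.

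RNA was measured on 1 Affymetrix array for each of 6 metastases. Of these, 3 came from mice without E2F2 (KO) and 3 from E2F3 heterozygotes (Het). All mice were FVB and carried Myc driven by the MMTV promoter, which is active mainly in mammary epithelium, and the metastases were frozen at endpoint. No samples intact for E2F2 and E2F3 were analysed here, and each difference sets one E2F genotype against another. The titles of the 3 Het arrays share 1 number, while the KO arrays carry 3 different numbers, so the Het metastases may come from 1 mouse. The labels do not say that samples came from separate animals, so p-values describe the spread among these samples, which may be technical. In the main fit, which averaged the Het arrays into 1 value, this spread came from the KO arrays alone. In such bulk samples, fewer cells of a type and less RNA per cell cannot be told apart.

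The kinase mTOR works in complex 1, with the adaptor Raptor (Rptor), and in complex 2, with Rictor, and Mlst8 binds the kinase in both. Complex 1 drives protein and lipid synthesis and restrains autophagy, and complex 2 phosphorylates AKT. DEPTOR binds mTOR and inhibits both complexes, and PRAS40 (Akt1s1) inhibits complex 1. The GTPase Rheb activates complex 1 at the lysosome. TSC1 and TSC2 form a complex that turns Rheb off, and Sestrin2 (Sesn2) lowers complex 1 activity when leucine is scarce or cells are stressed. The arrays measured RNA only, not protein or kinase activity.

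The array signals were on a linear scale with a trimmed mean of 500.2 on every array and array medians of 137.6 to 164.8. RNA quality controls set Het replicate 1 apart, with an actin 3' to 5' ratio of 2.38 against 1.48 to 1.73 on the other arrays and a transferrin receptor ratio of 11.8 against 3.25 to 5.15. The mammary and epithelial markers Krt8, Krt18, Epcam, Cdh1, Elf5, Csn2, Csn3 and Wap were all above the filter on dim probe sets, with summed signals of 74318 to 81045 in KO and 79498 to 87381 in Het metastases. Their sum hides unequal members. The milk protein gene Wap had 945, 3644 and 9295 in KO against 9346, 7217 and 9654 in Het replicates 1, 2 and 3. Elf5, a transcription factor of luminal mammary cells, had 3154, 5390.1 and 7346 in KO against 7318, 8890.1 and 8647 in Het replicates 1, 2 and 3. Both overlapped between the genotypes and were lowest in KO replicate 1. The alveolar type 2 marker Sftpc had 18126, 18596 and 5981 in KO and 14825, 11171 and 13190 in Het replicates 1, 2 and 3. All 7 T and B cell markers on the array were below the filter.

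The main Deptor probe set, 1451348_at, had signals of 2078, 1287 and 1188 in KO replicates 1, 2 and 3, against 381, 596 and 471 in Het replicates 1, 2 and 3. Every KO metastasis lay above every Het metastasis, KO replicate 1 was the highest and Het replicate 1 the lowest. Deptor averaged 1518 ± 488 in KO arrays, against 483 ± 108 in Het arrays (SD, n = 3 each), and KO minus Het was 1.60 on the log2(signal + 16) scale. The ratio of single KO to single Het arrays ran from 1.99 to 5.45 over the 9 pairs. The log2 difference was 1.35 without KO replicate 1, 1.45 without Het replicate 1 and 1.20 without both.

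The other Deptor probe sets showed smaller differences. Probe set 1453571_at had 286, 351 and 338 in KO replicates 1, 2 and 3, against 177, 226 and 274 in Het replicates 1, 2 and 3. Its groups did not overlap either, but the gap between the lowest KO and the highest Het array was a ratio of 1.05, and the log2 difference was 0.51. It did not share the order of the KO arrays with the main probe set, since KO replicate 1 was the lowest of the KO arrays here. The dim probe set 1419963_at had 85.1, 70.2 and 79.2 in KO against 21.8, 113.5 and 63.3 in Het replicates 1, 2 and 3, and the groups overlapped. Its log2 difference was 0.37, it fell below the filter on dim probe sets, and it was not tested. Over the 6 arrays, Pearson's r with the main probe set was 0.73 for 1453571_at and 0.53 for 1419963_at, as a description over arrays that also differ in genotype. With the log2 values of the 3 probe sets averaged, the Deptor difference was 0.83. All 3 probe sets thus lay higher on average in KO, and they disagreed on the size.

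**Figure D1:**
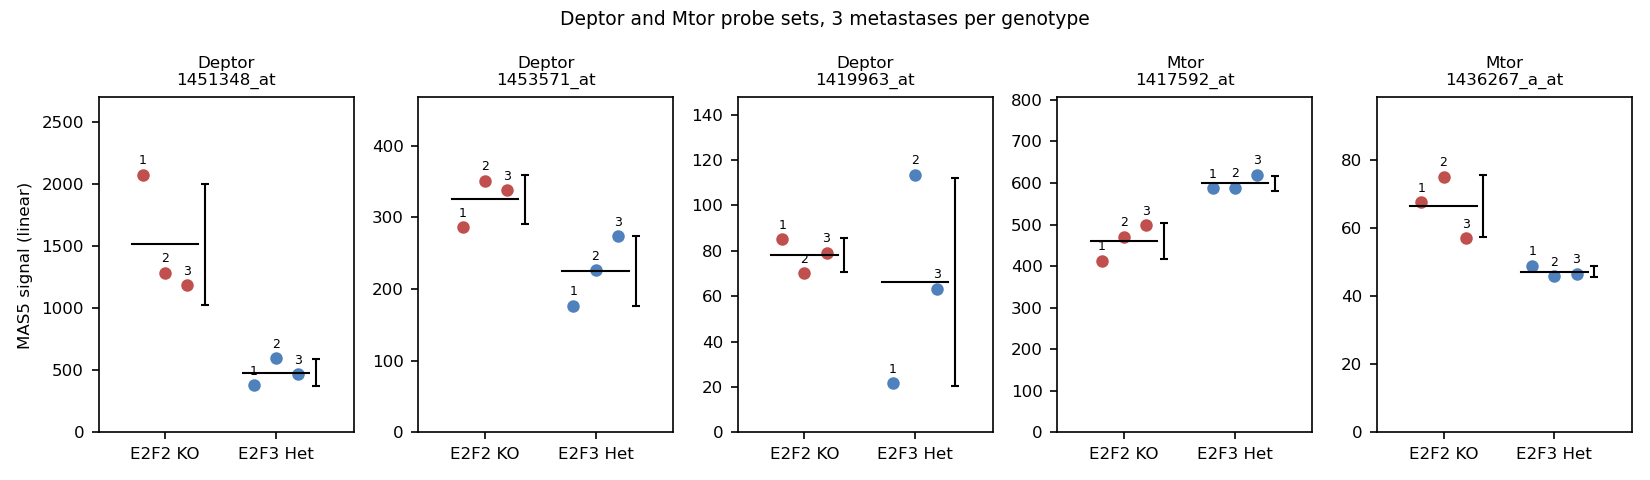
MAS5 signal on a linear scale of the 3 Deptor and 2 Mtor probe sets in KO (left, red) and Het (right, blue) metastases; points are arrays with their replicate number, lines are group means and error bars SD. The main Deptor probe set spanned 1188 to 2078 in KO arrays, against 381 to 596 in Het arrays, and the Mtor probe sets separated the groups in opposite directions.

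Markers of lung and stroma were set beside Deptor in the same arrays. Summed over 9 lung alveolar genes, the signal was 63060, 37568 and 13012 in KO and 31006, 19840 and 22201 in Het replicates 1, 2 and 3. The order of the KO arrays was that of the main Deptor probe set, and 8 of 9 genes were highest in KO replicate 1. All 9 genes had a higher KO mean on the linear scale, which is used for all marker means here. On the log2 scale Sftpc was at -0.038 and Hopx at 0.0010. Among Het arrays the order ran the other way, since Het replicate 1 had the highest alveolar sum and the lowest Deptor signal. KO replicate 3 had the lowest alveolar sum of the 6 arrays, but it was not the lowest array for Aqp5, Sftpd and Cav1. Its Deptor signal was 1188, or 1.99 times that of the highest Het array. The 8 endothelial genes summed to 1309 to 3261 in KO and 1471 to 2466 in Het metastases, with a higher KO mean for 8 of 8. On the log2 scale the endothelial gene Tek was at -0.046. The 7 fibroblast genes summed to 8446, 7392 and 5440 in KO replicates 1, 2 and 3, against 4816, 4916 and 4758 in Het replicates 1, 2 and 3. This sum did not overlap between the genotypes and had the same order of KO arrays as Deptor, with a higher KO mean for 6 of 7 genes. The exception was Pdgfra. The platelet genes Pf4, Ppbp and Itga2b were also higher in all KO arrays than in any Het array. Ppbp had 169.9, 208 and 192 in KO against 83.1, 25.5 and 90.9 in Het replicates 1, 2 and 3. The 5 erythroid and platelet genes summed to 741 to 1231 in KO and 379 to 847 in Het metastases, with a higher KO mean for these 3 alone. The 5 muscle genes summed to 371 to 1002 in KO and 295 to 481 in Het metastases, with a higher KO mean for 5 of 5, of which 2 were below the filter. Airway genes had a higher KO mean for 1 of 5, macrophage genes for 3 of 8 and mammary epithelial genes for 4 of 8. Wap and Elf5, by contrast, were lowest in KO replicate 1, where Deptor was highest. The part of RNA from these cell types in the Deptor difference was not tested.

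**Figure D2:**
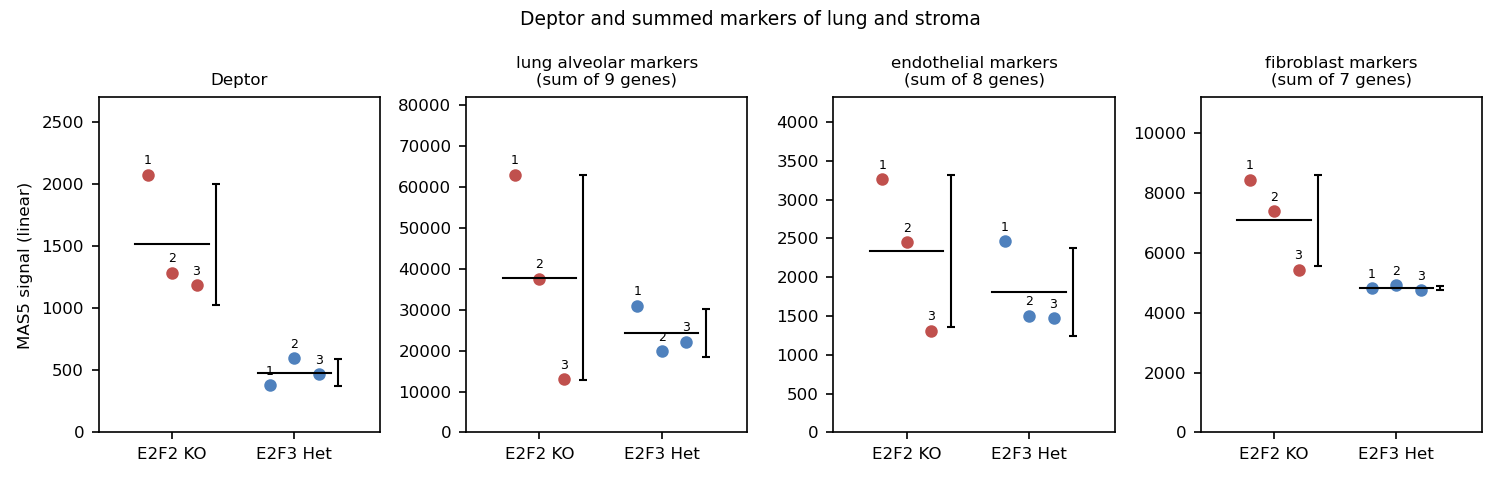
MAS5 signal of the main Deptor probe set and summed signals of 9 alveolar, 8 endothelial and 7 fibroblast markers, in KO (left, red) and Het (right, blue) metastases; points are arrays with replicate numbers, lines are means and error bars SD. In KO replicate 3 the alveolar sum was the lowest of all arrays at 13012, and Deptor was at 1188. The fibroblast sum of that array, 5440, lay above all Het arrays, at 4758 to 4916. The part of RNA from these cell types in the Deptor difference was not tested.

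Mtor, the kinase of both complexes, was the other member whose groups did not overlap on the main probe set. Probe set 1417592_at had 413, 471 and 498 in KO replicates 1, 2 and 3, against 588, 589 and 619.8 in Het replicates 1, 2 and 3. The KO arrays were all lower, and the 3 Het arrays lay close together. Mtor averaged 461 ± 43.4 in KO arrays, against 599 ± 18.2 in Het arrays (SD, n = 3 each), and the log2 difference was -0.37 (SE 0.24; limma adjusted p = 0.9999). With each array as a sample, the limma adjusted p was 0.430, so the difference did not pass in either fit. The second Mtor probe set, 1436267_a_at, was dim and went the other way, with 67.7, 75.2 and 57.0 in KO against 49.0, 45.9 and 46.7 in Het replicates 1, 2 and 3. Its groups also did not overlap, its log2 difference was 0.38, and it fell below the filter. Averaging both probe sets gave 0.0053, so no direction is given for Mtor as a gene.

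The promoters below are shown because Mtor was the other member that separated the genotypes and Rheb is the direct activator of complex 1. Irs1, described further on, had the highest difference of the pathway lists. Promoters of the other list genes that separated the genotypes were not examined singly. Sequences are from RefSeq on GRCm38.p6, 250 bases before to 50 after the gene start, 5′ to 3′ on the gene's strand. Of the 10 genes, 9 matched the promoter table by symbol; Deptor was the missing entry. Capitals mark the E-box CACGTG, which Myc binds with Max, the E2F-type letters TTTNNCGC and the box CCAAT, searched on both strands.
Mtor (chr4:148448332-148448631, plus strand): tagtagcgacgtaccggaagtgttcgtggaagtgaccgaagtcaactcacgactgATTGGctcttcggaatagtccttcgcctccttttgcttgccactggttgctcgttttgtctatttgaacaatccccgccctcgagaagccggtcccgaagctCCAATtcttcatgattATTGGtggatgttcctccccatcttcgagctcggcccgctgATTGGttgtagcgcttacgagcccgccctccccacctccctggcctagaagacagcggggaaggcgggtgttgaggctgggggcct
Rheb (chr5:24842312-24842611, minus strand): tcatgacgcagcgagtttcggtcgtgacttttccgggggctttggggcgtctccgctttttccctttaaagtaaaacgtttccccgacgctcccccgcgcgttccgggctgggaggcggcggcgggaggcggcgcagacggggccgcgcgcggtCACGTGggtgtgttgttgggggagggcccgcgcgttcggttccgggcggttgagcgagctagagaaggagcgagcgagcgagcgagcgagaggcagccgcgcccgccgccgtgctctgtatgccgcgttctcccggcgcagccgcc
Irs1 (chr1:82291390-82291689, minus strand): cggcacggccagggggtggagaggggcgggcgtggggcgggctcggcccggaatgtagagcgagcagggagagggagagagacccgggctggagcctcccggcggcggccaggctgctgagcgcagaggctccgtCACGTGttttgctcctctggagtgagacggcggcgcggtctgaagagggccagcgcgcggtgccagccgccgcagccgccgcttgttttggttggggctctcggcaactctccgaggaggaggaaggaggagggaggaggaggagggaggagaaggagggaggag
The Mtor window held CCAAT 4 times and neither of the other motifs, and the Rheb and Irs1 windows held CACGTG 1 time each. CACGTG was present in 7.15% of the 32851 promoter windows of this length, TTTNNCGC in 5.17% and CCAAT in 37.4%. Among the 9 matched members, 1 held CACGTG, 0 held TTTNNCGC and 3 held CCAAT. These are matches of letters in a window, and binding was not measured.

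The other complex subunits showed no separation. Mlst8, the subunit shared by both complexes, had 158, 137 and 96.3 in KO against 130.3, 134.9 and 117 in Het replicates 1, 2 and 3 on probe set 1415842_at. KO replicates 1 and 3 were the highest and the lowest of the 6 arrays. The log2 difference was 0.0091 (SE 0.37; limma adjusted p = 0.9999), and its sign turned to -0.067 with quantile normalization. The dimmer Mlst8 probe set 1415843_at had 80.9, 85.3 and 55.8 in KO against 37.5, 73.4 and 36.1 in Het replicates 1, 2 and 3, a log2 difference of 0.50 with overlapping groups. Rictor, which defines complex 2, was measured by the dim probe set 1427583_at alone. It had 35.6, 28.5 and 36.3 in KO against 18, 49.9 and 27.0 in Het replicates 1, 2 and 3. Het replicates 1 and 2 were the lowest and the highest of the 6 arrays, and the log2 difference of 0.11 fell below the filter and was not tested.

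Rheb, the direct activator of complex 1, was nearly level. Probe set 1416636_at had 2825, 3339 and 3150 in KO against 3038, 3458 and 3297 in Het replicates 1, 2 and 3. The groups overlapped, the SD was 260.3 in KO and 211.6 in Het metastases, and the log2 difference was -0.073 (SE 0.20; limma adjusted p = 0.9999). Its sign turned to 0.035 without KO replicate 1 and Het replicate 2.

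The TSC subunits also overlapped between genotypes. Tsc1 had 368, 233 and 239 in KO against 326, 261 and 281 in Het replicates 1, 2 and 3 on probe set 1455252_at, with KO replicates 1 and 2 the highest and the lowest of the 6 arrays. Its log2 difference was -0.068 (SE 0.34; limma adjusted p = 0.9999), and the sign turned without any of KO replicate 2, KO replicate 3 or Het replicate 1. A second, dim Tsc1 probe set, 1422043_at, ran from 28.2 to 53.7 in KO and from 40.5 to 51.0 in Het metastases, a log2 difference of -0.26. Tsc2, the subunit that acts on Rheb, had 271, 216 and 221 in KO against 272, 319 and 210.1 in Het replicates 1, 2 and 3. Het replicate 2 was the highest, and the log2 difference was -0.16 (SE 0.27; limma adjusted p = 0.9999).

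Sesn2 lay higher on average in KO on both of its probe sets, with overlapping groups. The main probe set 1451599_at had 169, 154 and 158 in KO against 156, 96.7 and 145 in Het replicates 1, 2 and 3. KO arrays were close together and Het replicate 2 was the lowest, and the log2 difference was 0.27 (SE 0.28; limma adjusted p = 0.9999). The other probe set 1425139_at had 76.3, 127 and 122 in KO against 84.9, 52.6 and 54.2 in Het replicates 1, 2 and 3, which gave 0.64 on the log2 scale (SE 0.41; limma adjusted p = 0.9999). KO replicate 1 lay below Het replicate 1 on this probe set, and KO replicates 2 and 3 lay above all Het arrays. Without Het replicate 2, the main Sesn2 difference was 0.085.

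**Figure D3:**
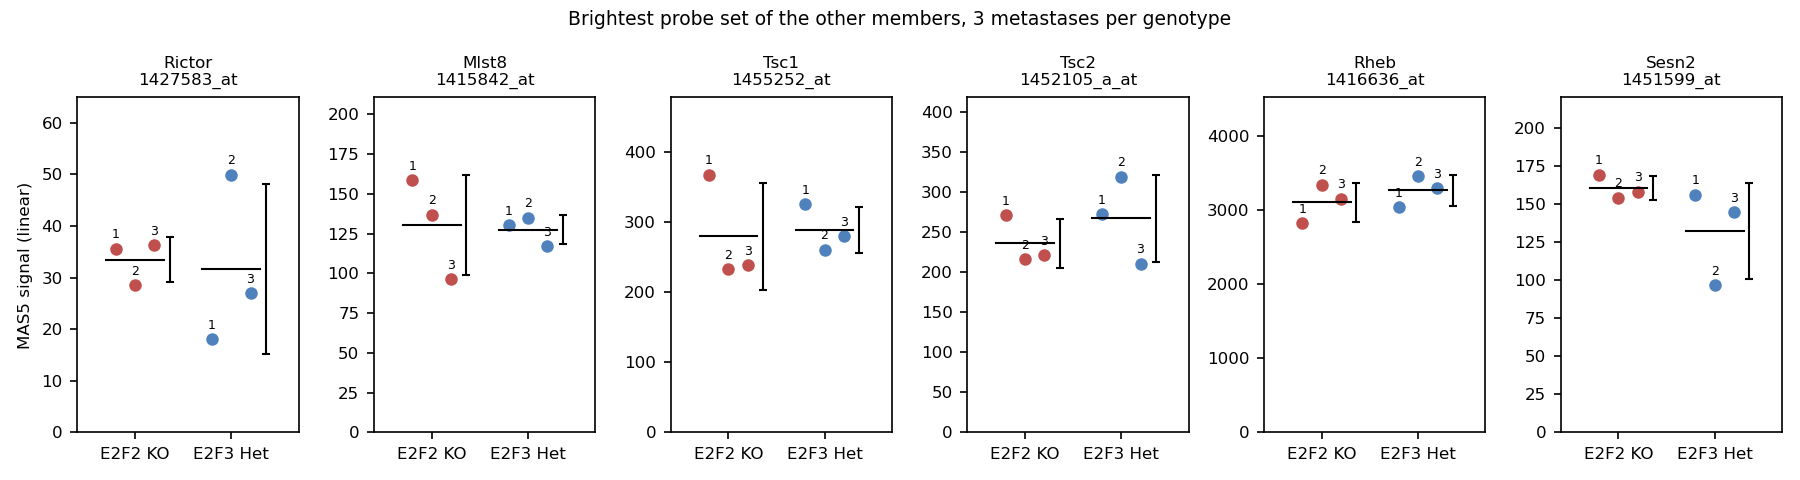
MAS5 signal on a linear scale of the main probe sets of Rictor, Mlst8, Tsc1, Tsc2, Rheb and Sesn2 in KO (left, red) and Het (right, blue) metastases; points are arrays with replicate numbers, lines are means and error bars SD. The groups overlap in all 6 panels, and each panel has its own scale because signals of different probe sets cannot be compared.

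Across the members, 7 of the 8 genes measured passed the filter on dim probe sets, which Rictor did not. In the limma fit over all 13575 kept probe sets, 0% had an adjusted p under 0.05, with 305 at an unadjusted p under 0.05 and 1395 with each array as a sample, and 0 of the 6 kept members other than Deptor passed. Their log2 differences ran from -0.37 to 0.27 with a median of -0.070, beside -0.040 over the 7970 kept genes. Without KO replicate 1 their median was -0.19, beside -0.037 over all kept genes, and without KO replicate 1 and Het replicate 1 it was -0.15, beside -0.022. Arrays of the genotypes did not overlap for 16.4% of kept genes and for 1 of these 6, Mtor. Without the filter it was 14.4% of 12393 genes, 6.09% higher and 8.3% lower in KO. Without Het replicate 1 the share over all kept genes was 26.8% and 2 of the 6 members did not overlap, and without KO replicate 1 it was 25.7% and 2 of 6.

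The wider pathway was followed through 6 lists of 89 genes, of which 68 were on the array and 62 passed the filter. The limma fit called 0 of the 62 in either direction. Of the 62, 20 lay higher and 42 lower in KO on average, so 32.3% were higher, against 43.7% of all kept genes. The median log2 difference was -0.096, beside -0.040 for all kept genes. Groups did not overlap for 2 genes higher and 6 lower in KO, against 5.93% and 10.5% of all kept genes. Without Het replicate 1 these counts were 4 higher and 13 lower, against 11.4% and 15.4%, and without KO replicate 1 they were 5 and 11, against 9.69% and 16%. Without both arrays they were 6 and 18, against 16.7% and 21.6%.

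Among the inputs from growth factor receptors, PI3K and AKT, 9 of 16 genes were kept, 3 higher and 6 lower. Irs1, the adaptor that links insulin and IGF receptors to PI3K, had the highest difference of the 6 lists. Its signal was 901, 426 and 369 in KO replicates 1, 2 and 3, against 190.1, 174 and 228 in Het replicates 1, 2 and 3. All KO arrays were higher and KO replicate 1 the highest, as for Deptor. Irs1 averaged 565 ± 292 in KO arrays, against 197 ± 28.1 in Het arrays (SD, n = 3 each), and the log2 difference was 1.34 (SE 0.52; limma adjusted p = 0.9999), or 0.96 without KO replicate 1.

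Pik3r1, a regulatory subunit of PI3K, had 1155, 1545 and 1789 in KO against 1768, 2958 and 3507 in Het replicates 1, 2 and 3. The groups touched only where KO replicate 3 lay just above Het replicate 1. The log2 difference was -0.83 (SE 0.30; limma adjusted p = 0.9999), and its other probe sets were at -0.73 and -0.070. Pik3r2, another regulatory subunit, had 299, 311 and 285 in KO against 338, 345 and 347 in Het replicates 1, 2 and 3, a log2 difference of -0.19 with no overlap. Phlpp1, a phosphatase that acts on AKT and was named here after its values were seen, had 435, 429 and 413 in KO against 492, 480.4 and 469 in Het replicates 1, 2 and 3, also with no overlap. Akt1, the kinase downstream of PI3K, was at -0.045 on its main probe set and at 0.45 on another whose KO arrays were all higher.

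The Rag GTPases, Ragulator, GATOR and amino acid sensors control the recruitment of complex 1 to the lysosome, and some of them restrain it. Of these 26 genes, 16 were kept, 4 higher and 12 lower. The Ragulator anchor Lamtor1 had 2670, 3481 and 3148 in KO against 3778, 4659 and 3568 in Het replicates 1, 2 and 3. All KO arrays were lower, with a log2 difference of -0.37 (SE 0.22), and its other probe sets, which overlapped, were at -0.29 and -0.19. Nprl2, a GATOR subunit that restrains complex 1, had 352, 361 and 370.4 in KO against 438, 416 and 433 in Het replicates 1, 2 and 3, a log2 difference of -0.24 (SE 0.22). The groups of Nprl2 did not overlap and each was tight. Lamtor5 was at -0.10 and Sesn3, a relative of Sesn2, at -0.39, both with overlap.

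Energy and stress inputs were kept for 7 of 12 genes, 3 higher and 4 lower, and 0 separated the groups. Ddit4, a stress-induced inhibitor of complex 1, had 2191, 3717 and 4093 in KO against 4281, 4639 and 3068 in Het replicates 1, 2 and 3, a log2 difference of -0.29 (SE 0.38). KO replicate 1 was the lowest of the 6. The hypoxia gene Bnip3 was at -0.17, and the AMPK subunits Prkab1 and Prkag1 were at -0.26 and 0.27. The complex accessory and assembly genes were kept for 5 of 6, 1 higher and 4 lower. The complex 2 subunit Mapkap1 was at -0.070, the complex 2 partner Prr5 at 0.19, and the assembly factors Tti1 and Tti2 were at -0.25 and -0.43. Another Tti2 probe set was at 0.26 and another of Mapkap1 at 0.16.

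Substrates and translation effectors were kept for 19 of 21 genes, 6 higher and 13 lower, with a median log2 difference of -0.11. This median was -0.22 without KO replicate 3. It was -0.064 when KO replicate 1 was left out and -0.059 when KO replicate 2 was. Ndrg1, whose protein is phosphorylated by SGK1 downstream of complex 2, had 5698, 2634 and 5932 in KO against 6004, 8002 and 6559 in Het replicates 1, 2 and 3. The KO arrays were all lower, although KO replicates 1 and 3 lay close to Het replicate 1, and KO replicate 2 was far below the rest. Its log2 difference was -0.61 (SE 0.49), or -0.23 without KO replicate 2, and its other 4 probe sets overlapped and were at -0.61, -0.40, -0.25 and -0.14. Eif4ebp2, a translation repressor that complex 1 phosphorylates, was named after its values were seen as the other gene of this list with no overlap. It had 638, 913 and 845 in KO against 969, 1002 and 1027 in Het replicates 1, 2 and 3. The translation factor Eif4b was at 0.22 on its main probe set and at 0.31 and 0.55 on the others. The forkhead factor Foxo3 was at -0.37, the translation inhibitor Pdcd4 at -0.36 and the kinase Sgk1 at 0.46, all with overlap, and another Foxo3 probe set was at -0.37 with all KO arrays lower.

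DEPTOR protein is marked for degradation by casein kinase 1 and the SCF ubiquitin ligase with its F-box protein βTrCP, so these genes were listed with the deubiquitinases that act on it. Of 8 genes, 6 were kept, 3 higher and 3 lower. Skp1, a core subunit of SCF, had 5621, 4498 and 4021 in KO against 3366, 3658 and 3769 in Het replicates 1, 2 and 3. The KO arrays were all higher, with a log2 difference of 0.38 (SE 0.24), or 0.24 without KO replicate 1, and its other probe set was at 0.063 with overlap. The scaffold Cul1 was at -0.20, the casein kinase Csnk1a1 at -0.062 and the deubiquitinase Otub1 at 0.41, with overlap for all 3. No gene in these 6 lists passed the fit, and the lowest limma adjusted p with each array as a sample was 0.348, for a gene of the PI3K and AKT list, Irs1.

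Single arrays and settings also moved other list medians. The energy and stress median was -0.11 and turned to 0.10 without KO replicate 2. The PI3K and AKT median was -0.091, was -0.18 without KO replicate 1 and turned to 0.024 when dim probe sets were kept. The Rag and Ragulator median was -0.090, and -0.18 without Het replicate 2. The accessory and assembly median was -0.093 and ran from -0.17 to -0.013 over the alternatives. The degradation list median was -0.020 and turned to 0.22 when all probe sets of a gene were averaged. No direction is therefore given for these 3 lists, energy and stress, PI3K and AKT, and degradation.

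**Figure D4:**
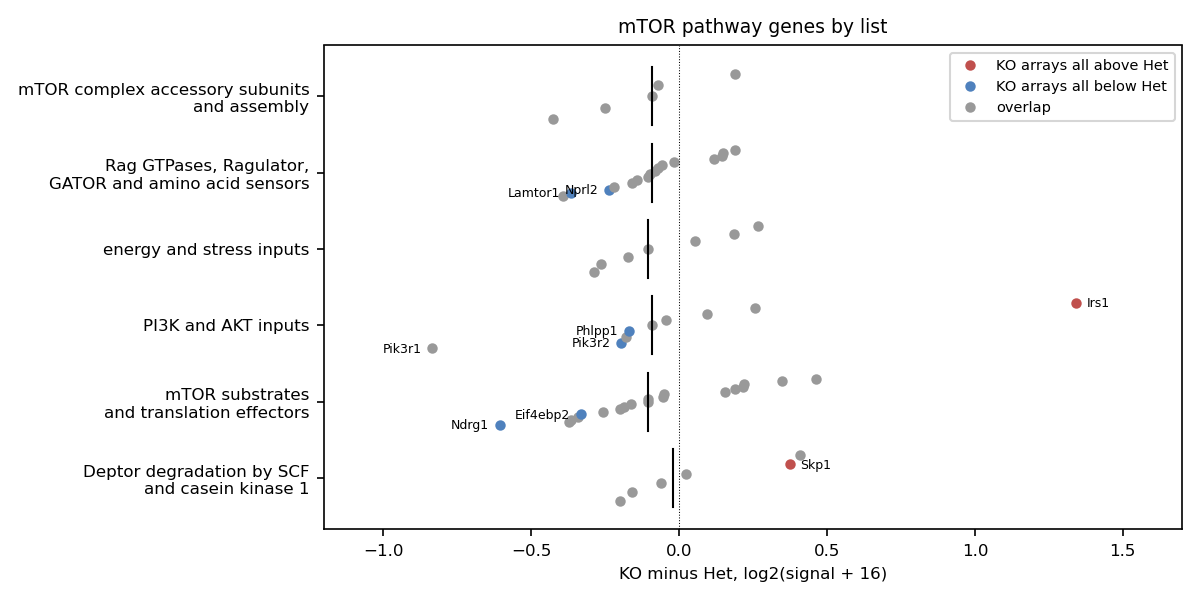
Log2 differences of KO minus Het for the 62 kept genes of the 6 pathway lists; each point is a gene by its brightest probe set, vertical bars are list medians, and colour shows whether the KO arrays lay all above, all below or overlapping the Het arrays. Irs1 stands alone at 1.34 on the right, and the list medians, which moved when single arrays were left out, lie between -0.11 and -0.020.

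Deptor lies on mouse chromosome 15, as do Rictor and Myc, and position was not used in choosing it. Of the 10 genes on either side of Deptor in the gene table, 5 had a probe set with 1 symbol and 3 of them were kept. Mtbp, which encodes a protein that binds MDM2, had 293, 266 and 176 in KO against 143, 178 and 142 in Het replicates 1, 2 and 3, a log2 difference of 0.59 (SE 0.36). Only KO replicate 3 of the KO arrays fell within the Het range. The collagen gene Col14a1 was at 0.56 (SE 0.54) and the mitochondrial ribosomal gene Mrpl13 at 0.35 (SE 0.27), both with overlap, and the dim genes Ccn3 and Sntb1 were at 0.89 and 0.32. With 10 protein-coding genes on either side, a window chosen after these values were seen, 12 were on the array and 7 were kept. The kept ones had a median log2 difference of 0.47. Ext1, a heparan sulphate polymerase, had 388, 389 and 392 in KO against 223, 290.1 and 271 in Het replicates 1, 2 and 3, and it alone of the 7 did not overlap. In Col14a1, Mrpl13, Mtbp, Med30 and Derl1, KO replicates 1 and 2 lay above all Het arrays, while KO replicate 3 lay within or below the Het range. Deptor and Ext1 differed from these neighbours in that KO replicate 3 also lay above all Het arrays, as it did for the dim genes Ccn3 and Has2. Med30 was at 0.47 and Derl1 at 0.29, and Mal2 was at -0.0032.

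The same direction ran along the chromosome. The 321 kept genes of chromosome 15 other than Deptor had a median log2 difference of 0.21 and 72.3% lay above 0, against a median of -0.047 and 42.5% for 7637 genes of other chromosomes. Among 20 chromosomes it had the highest median, followed by chromosome 11 at 0.053. With each gene set against its own mean over the 6 arrays, the chromosome 15 median was 0.36, 0.18 and -0.26 in KO replicates 1, 2 and 3, against -0.058, -0.11 and -0.13 in Het replicates 1, 2 and 3. KO replicates 1 and 2 were the highest and KO replicate 3 the lowest of all 6 arrays. Without KO replicate 1 the chromosome median was 0.059, and without KO replicate 3 it was 0.37. The Deptor log2 difference was 1.35 without KO replicate 1, and its signal in KO replicate 3 was 1188. Of the genes of chromosome 15 other than Deptor, 6 of 321 had a log2 difference above 1. On other chromosomes it was 110 of 7637, a similar share. KO arrays lay all above the Het arrays for 45 of these 321 genes, or 14.0%, against 427 of 7637, or 5.59%. DNA copy number was not measured, and its part in the Deptor difference was not tested.

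Chromosome 17, which carries Mlst8 and Tsc2, had the lowest median, at -0.15. Its median by array was -0.0014, -0.11 and -0.12 in KO and -0.014, 0.30 and -0.050 in Het replicates 1, 2 and 3. Het replicate 2, the array that stood highest on chromosome 17, was also the array with the highest Tsc2 signal of 319. Without it the chromosome median was -0.051 and the Tsc2 log2 difference -0.026. The main Mlst8 probe set was highest in KO replicate 1, at 158, with 134.9 in Het replicate 2. Without Het replicate 2 the Mlst8 log2 difference was 0.047. The part of the chromosome in these values was not tested.

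**Figure D5:**
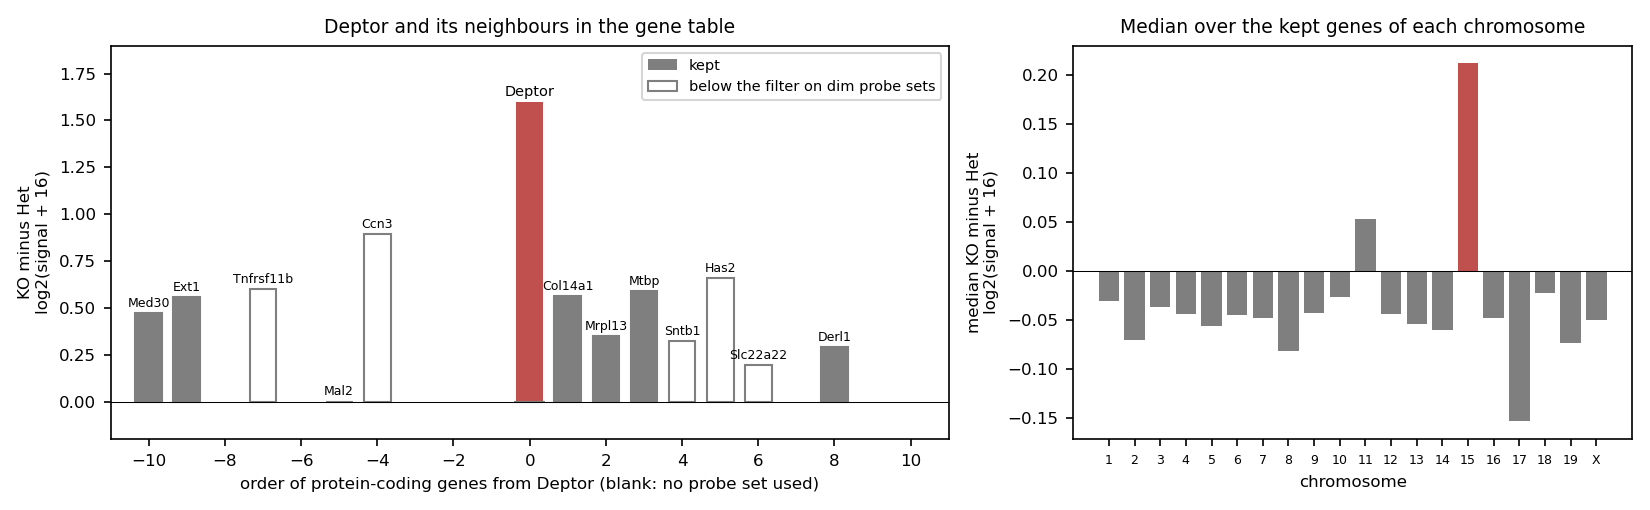
Left, log2 difference of KO minus Het for Deptor (red) and its protein-coding neighbours with a probe set, in gene order, with open bars for genes below the filter; right, median difference over the kept genes of each chromosome, with chromosome 15 in red. The main Deptor probe set, of a gene chosen for this difference, is at 1.60. Its other probe sets, not drawn, were at 0.51 and 0.37, and the dim neighbour Ccn3 is at 0.89. Chromosome 15 has the highest median, 0.21.

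The genes most like Deptor were taken by Pearson's r over the 6 arrays among 2887 kept probe sets with 1 symbol that spanned at least 1 log2 unit. Fndc1, which encodes a fibronectin type III domain protein, had r = 0.996, and Rhoj, a gene expressed in endothelial cells, 0.993. Fam91a1 had r = 0.982, Pimreg, a mitotic regulator, 0.976, and Sgpp1, a sphingosine 1-phosphate phosphatase, 0.969. Fam91a1 lies on chromosome 15, as Deptor does, Fndc1 on chromosome 17, Rhoj and Sgpp1 on 12 and Pimreg on 11. The probe sets of Fam91a1 and Sgpp1 compared here were not the brightest of their genes. Rhoj had 843, 604 and 523 in KO against 196, 249 and 208 in Het replicates 1, 2 and 3, which shows the shared order of the KO arrays and the gap between the groups. All 5 had no overlap between genotypes, against 16.4% of kept genes by their brightest probe set. They were picked for likeness to Deptor, whose groups did not overlap, so this is no further result. With 6 arrays in 2 groups such an r carries the group difference itself.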

How the data were processed

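Signals of 6 Affymetrix arrays were used as deposited by the authors, as intensities on a linear scale. MAS5 and Affymetrix Expression Console are named, per the submitters' processing notes, without versions. Every deposited column had the same trimmed mean, 500.2, with 2% trimmed at each end. Without detection calls, dim probe sets cannot be placed above or below background, and the number of arrays limits the precision. The genome build behind the values was not given in the sources used here. Gene symbols came from the platform annotation, and chromosomes and gene order from the GRCm38.p6 gene table.

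Het replicates 1, 2 and 3 were numbered by accession and carry the title endings LM2, LM1 and LM3. Signals were transformed to log2(signal + 16), which understates differences of dim genes. The 64 control probe sets and the 40% of the others with the lowest mean were left out, which kept 13575 with mean signals of at least 82.7. KO (3 samples) was set against the mean of the 3 Het arrays, taken as 1 sample, with limma 3.58.1 in R 4.3.3 (lmFit, eBayes with trend), with Benjamini-Hochberg adjustment over all kept probe sets at 0.05. This fit takes the spread of the single Het value to be that of the KO samples. It also gave each SE, while each SD describes 3 arrays. The fits were run on simulated data, where a threshold for recovering added differences was set only for the fit with each array as a sample. With Het as 1 sample, a gene that did not pass is not shown to be unchanged.

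The members and lists were chosen with earlier results of these data known. From each pathway list, the 2 brightest genes and the 3 with the largest moderated t were named, together with all members, the 5 genes most like Deptor and those within 10 genes of it. Chromosome medians and the promoter search were added after values had been seen, as was the naming of Ext1, Med30, Derl1 and Mal2. Alternatives covered the unit of replication, pseudocounts of 1 and 64, no filter or 60% left out, quantile normalization, the probe sets of a gene and leaving out arrays. Python 3.11.15 and matplotlib 3.10.9 made the summaries and figures.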

Additional observations from a re-analysis of the deposited data

How the results depend on the processing

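The Deptor log2 difference kept its direction in every alternative run, which is no support for it. Deptor was chosen for this difference. On its main probe set the groups did not overlap, so leaving out arrays could not turn the sign. Settings of the unit of replication and the filter leave the value as it is. The difference ran from 1.35 to 1.76 without each array in turn. It was 0.83 averaged over its probe sets and, among settings chosen after seeing the data, 1.20 without KO replicate 1 and Het replicate 1, and 0.51 and 0.37 on its other probe sets. Differences near 0 changed sign. Mlst8 was at -0.067 with quantile normalization, ran from -0.13 to 0.19 without each array in turn, and was at -0.091 without KO replicate 1 and Het replicate 2 and at -0.11 without KO replicate 1 and Het replicate 1. Tsc1 ran from -0.27 to 0.042 without each array and was at -0.34 without KO replicate 1 and Het replicate 2. Rheb was at 0.035 without KO replicate 1 and Het replicate 2, and Mtor at 0.0053 averaged over its probe sets, the construction of which mixes probe sets of opposite sign. For the other reversals the cause was not tested. Sesn2 and Tsc2 kept their direction in the alternatives run. Of the medians of the 6 pathway lists, that of substrates moved beyond its spread most often, and those of energy and stress, PI3K and AKT, and degradation changed sign in some alternatives. Limma called 0 probe sets in every alternative, with the lowest adjusted p of 0.0537 with each array as a sample and 0.258 with arrays of 1 title number as a random block. No paired analysis was possible because the labels give the KO arrays no replicate number shared with the Het arrays.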
